A study of Mus musculus with 8 samples.

Results

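Lysosomes degrade material in an acid interior, and the genes described here make the proton pump that acidifies them and the proteases that work inside them. Members were the gene symbols of the count tables that begin with Atp6v or Atp6ap, or that are Cts followed by a single letter, with at least 10 counts summed over the 8 libraries. Atp6v0d2, Ctss and Ctsk were left out by name. Of 23212 symbols, 44 had such names and 32 were members, made up of 21 genes of the proton pump and 11 cathepsins. Their RNA came from perigonadal fat, a visceral depot, taken whole from 8 C57BL/6 mice. Of these, 4 were wild type and 4 carried a gene knockout restricted to adipocytes, matched for age and weight per the labels. All 8 were 20 weeks old and had eaten a 45% fat diet for 12 weeks, from 8 weeks of age, so no lean group enters any comparison. The labels do not name the promoter that drove the deletion.

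The vacuolar proton pump (V-ATPase) is a rotary machine. Its V1 sector lies in the cytosol and hydrolyses ATP, and its V0 sector lies in the membrane and carries protons into lysosomes, endosomes and secretory granules. Cathepsins are proteases made as inactive precursors, most of which mature in the acid lumen. In obese fat, macrophages that take up lipid from dying adipocytes are rich in lysosomes, but adipocytes and stromal cells have lysosomes too. Whole tissue was sequenced, so fewer cells of a type and less RNA per cell cannot be told apart.

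The libraries held 46444435 to 51431956 counts each. Adipocyte markers (12 of 12 detected, none at 0 in all libraries) summed to 44910 to 62200 CPM (counts scaled to library size) in wild type and 47390 to 65440 CPM in knockout. Wild-type library 3 and knockout library 2 stood apart from the other 6 in epithelial genes. The summed level of 13 markers of epididymal and ciliated epithelium was 40.5 CPM and 126 CPM in this pair, against 1.14 to 6.24 CPM in the others.

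Many genes of the lysosome carry the sequence that the transcription factor TFEB and its relatives bind, an E-box with fixed flanks known as the CLEAR element. RefSeq promoters (GRCm38.p6, 250 bases before to 50 bases after a gene's start) were matched by symbol for 22 of the 32 members, in 24 promoters. The full element, TCACGTG preceded by G and followed by AC, which reads the same on both strands, was in 0 of these 24 and in 0.326% of all 32851 promoters. The shorter TCACGTG, searched on both strands, was in 6 of the 24 (25.0%), against 3.77% of all promoters. Its inner 6 letters CACGTG, the E-box core that every TCACGTG contains, were in 8 of the 24 (33.3%), against 7.15% of all. A match is a description of the letters in the window, and binding was not measured. The 4 promoters below are shown because they hold TCACGTG on either strand (capitals, with overlapping matches joined) and their start site lies at most 43 bases from the 5′ end of the gene in the deposited annotation.
Atp6v0b, chr4:117887280-117887579, minus strand: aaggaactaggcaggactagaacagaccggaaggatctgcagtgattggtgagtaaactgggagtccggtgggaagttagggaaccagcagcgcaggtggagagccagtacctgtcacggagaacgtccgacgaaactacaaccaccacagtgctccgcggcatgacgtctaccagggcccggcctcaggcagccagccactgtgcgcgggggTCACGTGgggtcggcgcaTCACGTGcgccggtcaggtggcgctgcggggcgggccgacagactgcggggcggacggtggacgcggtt
Atp6v0d1, chr8:105566015-105566314, minus strand: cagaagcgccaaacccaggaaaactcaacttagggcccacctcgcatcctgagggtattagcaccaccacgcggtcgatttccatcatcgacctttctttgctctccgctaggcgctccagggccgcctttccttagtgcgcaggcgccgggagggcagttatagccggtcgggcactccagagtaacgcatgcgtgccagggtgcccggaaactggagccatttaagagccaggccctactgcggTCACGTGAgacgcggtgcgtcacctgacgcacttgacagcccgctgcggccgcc
Atp6v0e, chr17:26676146-26676445, plus strand: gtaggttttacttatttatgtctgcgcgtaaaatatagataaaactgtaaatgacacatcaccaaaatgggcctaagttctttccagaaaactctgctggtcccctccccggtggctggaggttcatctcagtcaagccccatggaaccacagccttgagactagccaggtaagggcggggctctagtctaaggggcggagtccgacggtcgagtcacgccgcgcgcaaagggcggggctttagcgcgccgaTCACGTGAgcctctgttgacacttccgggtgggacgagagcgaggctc
Ctsd, chr7:142387778-142388077, minus strand: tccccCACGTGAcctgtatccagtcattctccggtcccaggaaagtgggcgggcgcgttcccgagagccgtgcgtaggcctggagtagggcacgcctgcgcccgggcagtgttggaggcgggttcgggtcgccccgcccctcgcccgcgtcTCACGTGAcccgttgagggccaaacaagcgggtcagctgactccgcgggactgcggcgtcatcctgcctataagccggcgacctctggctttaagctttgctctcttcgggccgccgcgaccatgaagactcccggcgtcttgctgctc

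In Atp6v0b the matches began 37 and 19 bases before the start site, in Atp6v0d1 4 bases before it and in Atp6v0e 2 bases after it. In Ctsd, where the first match is read on the opposite strand as CACGTGA, they began 245 and 99 bases before the start site. Atp6v1a (132 bases before its RefSeq start) and 1 of 2 Ctsa promoters also held TCACGTG, but those starts lay 240 and 900 bases from the 5′ ends of the deposited gene models. Ctsf and Ctsl held only the core CACGTG.

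Levels between genes were compared per kilobase (kb) of exon in the deposited annotation. Ctsd, the aspartic protease of the lysosome, was the highest member at 1383 ± 220 CPM per kb (SD, n = 8), and it lay between 1136 and 1811 in the 8 libraries. The cysteine proteases Ctsb, at 679 ± 131 CPM per kb, and Ctsl, at 577 ± 237, came next, and their ranges overlapped each other (500 to 903 and 318 to 940). Together these 3 cathepsins gave 64.8% to 73.2% of all CPM of the 32 members in a library. Of the other cathepsins, Ctsz, a carboxypeptidase, was at 259 ± 68.3 CPM per kb. Ctsa, Ctsf, Ctsc, Ctsh and Ctso had means of 23.3 to 55.6. These 9 had means of at least 20 CPM and are called common below, unlike Ctsw and Ctse.

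**Figure D1:**
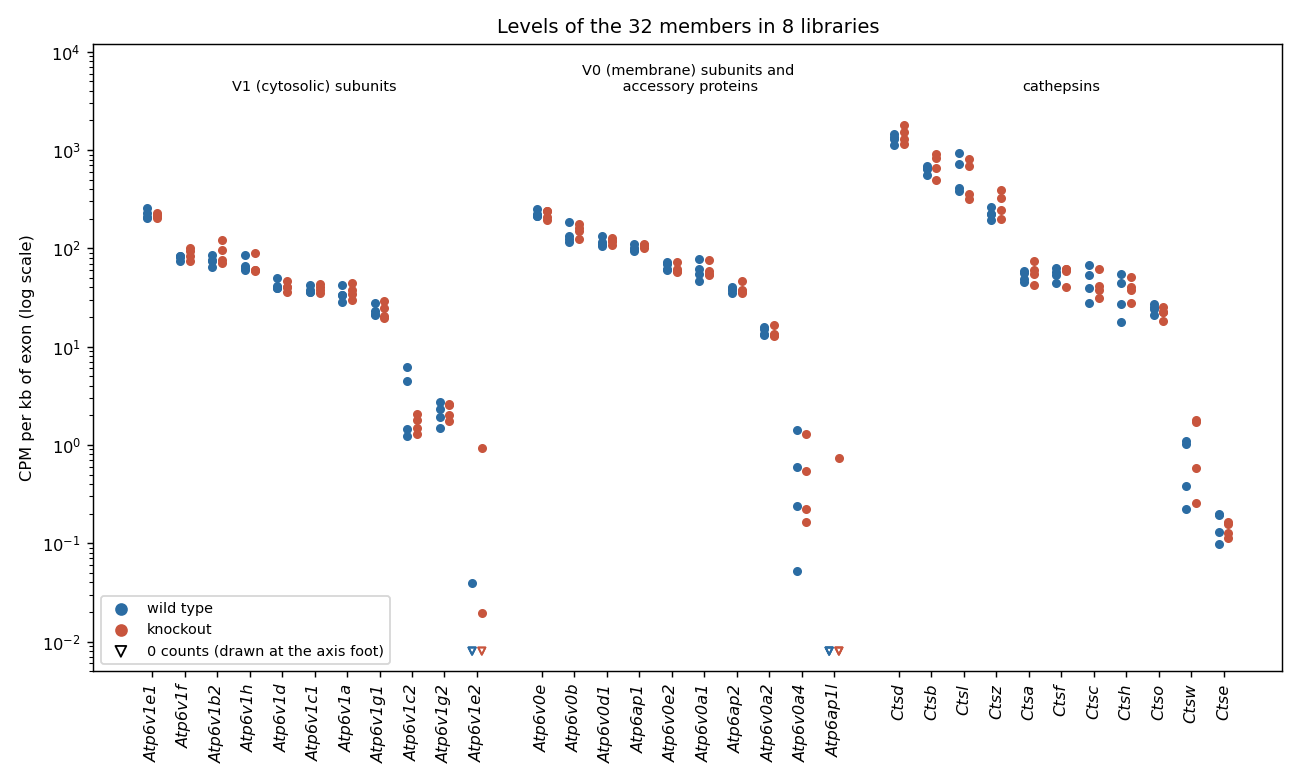
Level of each of the 32 members in every library, as CPM per kb of exon on a log axis, with wild type in blue, knockout in red and libraries without a count as open triangles at the foot. Ctsd leads at a mean of 1383, the 16 pump members at 20 CPM or more lie between means of 14.2 and 223, and 7 members lie below means of 3.

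The 16 pump members with a mean of at least 20 CPM (the common pump members below) lay in a narrower band, from 14.2 CPM per kb for Atp6v0a2 to 223 for Atp6v0e, a small subunit of the membrane sector. Atp6v1e1, part of the peripheral stalk of V1, was at 220 ± 17.2 CPM per kb and did not differ from Atp6v0e beyond the spread between libraries (ranges 202 to 255 and 193 to 252). Atp6v0b, a proton-carrying ring subunit, was at 147 ± 26.2, Atp6v0d1, which couples the ring to the central stalk, at 118 ± 9.57, and the accessory protein Atp6ap1 at 105 ± 6.66. The catalytic head of V1 is made of the A subunit, Atp6v1a, at 35.6 ± 5.66 CPM per kb, and the B subunit, Atp6v1b2, at 82.9 ± 18.0. The main ring subunit, Atp6v0c, was listed at 0 in every library and was no member. In the deposited annotation 1117 of its 1151 exonic bases are also those of the symbol Atp6v0c-ps2, likewise at 0, so its transcript level cannot be read from these counts. Atp6v1g1, at 23.4 ± 3.68 CPM per kb, is less certain, because 357 bases of its transcript match the processed pseudogene Gm13453 at 99.4% identity in the GENCODE vM21 transcripts. Other members have such matches too. Ctsd matches Gm49369 over 671 bases and Ctsl the processed pseudogene Gm49230 over 395 bases, both at 100% identity. Atp6ap2 matches Gm36448 over 438 bases (98.4%) and Atp6v1f matches AC169506.3 over 202 bases (98.5%), both pseudogenes. The effect of these matches on the levels was not tested.

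Several pump subunits exist as isoforms, some widely expressed and others restricted to particular epithelia, brain or testis. In each of 6 isoform pairs whose genes were both members, the isoform named second in the ratios below was higher per kb in 8 of 8 libraries. A two-sided exact paired permutation test gave p = 0.00781 for each pair, the smallest value it can give, and an adjusted p of 0.00781 over the 6 pairs. The log2 ratio of Atp6v0e2 to Atp6v0e was -1.79 ± 0.18 and that of Atp6v0a2 to Atp6v0a1 was -2.08 ± 0.30 (SD, n = 8 each). The ratio was -3.43 ± 0.47 for Atp6v1g2 to Atp6v1g1 and -4.20 ± 0.90 for Atp6v1c2 to Atp6v1c1. The sixth pair was Atp6v1e2 to Atp6v1e1, where Atp6v1e2 had no count in 5 libraries. The ratio of Atp6v0a4, the a subunit of acid-secreting epithelia, to Atp6v0a1 was -7.31 ± 1.37. That gene's deposited model shares 9816 of its 12842 exonic bases with D630045J12Rik, and with the shared bases left out of its length the ratio was -5.28 (an alternative chosen after the values were seen). For none of the 6 ratios did a test find a difference between the genotypes (two-sided exact permutation test over 70 arrangements, unadjusted p from 0.371 to 0.857, adjusted p = 0.857 for each pair, where the smallest p possible is 0.0286).

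A few isoforms were at or near the limit of detection. Atp6v1e2, the testis form of the E subunit, had 45 of its 48 counts in knockout library 2, and Atp6ap1l had all of its 42 counts there. That library also held the most epithelial marker RNA (126 CPM summed), and the part of that RNA in these counts was not tested. Atp6v1b1 and Atp6v1g3, isoforms of acid-secreting epithelia, had 6 counts and 1 count in all and were no members. The cathepsins Ctsj, Ctsm, Ctsq and Ctsr, which are placental, had no count in any library. Ctsg, a serine protease of neutrophils and mast cells, had 9 counts in all.

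The comparison of knockout with wild type addressed whether fat whose adipocytes lacked the gene differed in lysosomal RNA. No member changed past the threshold. All 9 common cathepsins and all 16 common pump subunits overlapped between the genotypes. Of the 32 members 30 had enough counts to be tested, all but Atp6v1e2 and Atp6ap1l. With edgeR's quasi-likelihood test and Benjamini-Hochberg adjustment over all 14493 tested genes, 0 of 30 members passed an adjusted p of 0.05, where 0.0138% of all tested genes did. At an unadjusted p under 0.05 the count was 0 of 30 in edgeR, where 2.23% of all tested genes lay, 1 in DESeq2 (2.9% of genes) and 0 in limma voom (1.93% of genes). The member in DESeq2 was Atp6v1c2, at an unadjusted p of 0.0464. Neither of these tools called a member after adjustment, while over all genes DESeq2 called 0.134% and limma voom 0%. Among the 30, 0 had libraries that did not overlap between the genotypes, against 1.44% of all tested genes.

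**Figure D2:**
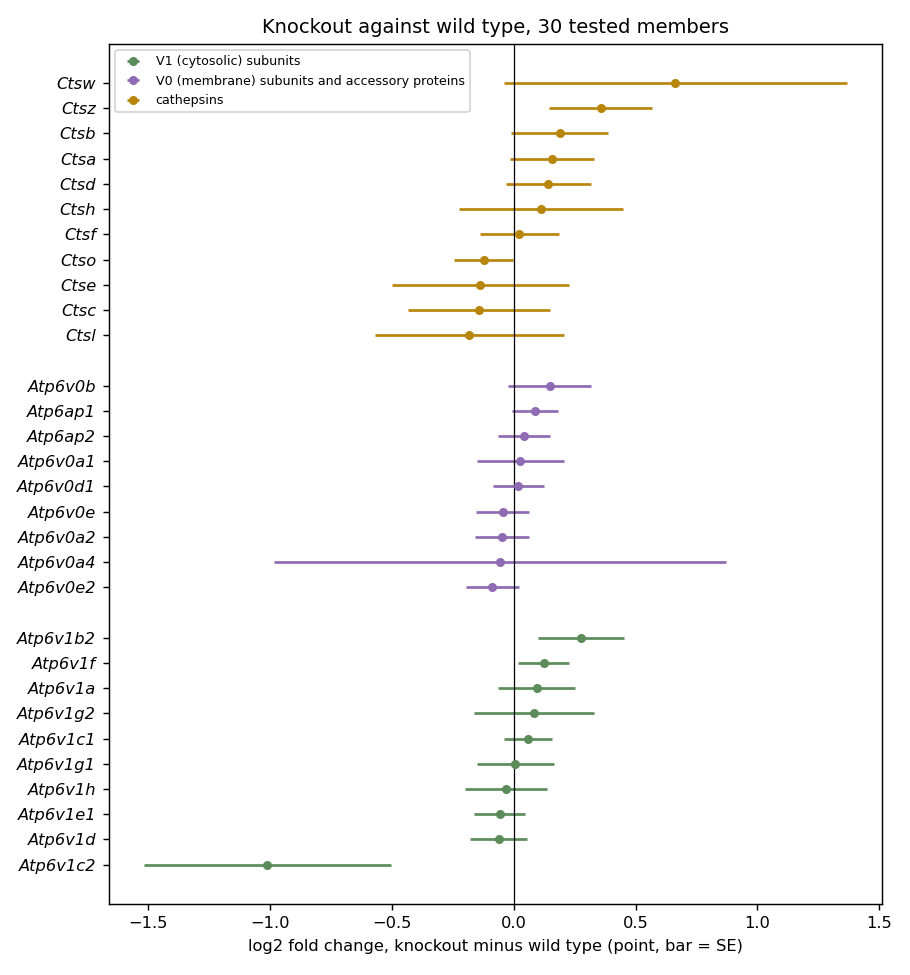
Log2 fold change of each of the 30 tested members, knockout minus wild type, with its SE, ordered by size within V1 subunits, V0 subunits with accessory proteins, and cathepsins. Of the 30 points 27 lie within 0.3 of 0, and the exceptions are Atp6v1c2 at -1.01, Ctsw at 0.66 and Ctsz at 0.36.

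The 19 tested pump members were split into 11 above 0 and 8 below, with a median log2 fold change of 0.02. The 11 cathepsins were split into 7 above and 4 below, with a median of 0.11. Over all tested genes 53.1% lay above 0 and the median was 0.01. Each member had an adjusted p of 1.00 in edgeR. Without knockout library 4 the number of members above 0 dropped from 18 to 11 of 30.

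Among the V1 subunits, Atp6v1c2, an epithelial form of the C subunit that holds V1 and V0 together, had the smallest p. It read 2.31, 1.98, 7.17 and 9.87 CPM over wild-type libraries 1 to 4, against 2.38, 3.29, 2.06 and 2.85 CPM over the knockout libraries in the same order. Wild-type libraries 3 and 4 were above all others, and the other wild-type libraries lay within or just below the knockout range. The log2 fold change was -1.01 (SE 0.51, unadjusted p = 0.0783, adjusted p = 1.00, edgeR). Its exons share 50 of 1597 bases with Pdia6.

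Atp6v1b2, the widely expressed B subunit that binds nucleotide in the V1 head, read 209, 232, 203 and 178 CPM over the wild types, against 262, 193, 208 and 332 CPM over the knockouts. Knockout libraries 1 and 4 were above every wild-type library and the other knockout libraries were within the wild-type range. The log2 fold change was 0.28 (SE 0.18). Its partner Atp6v1a, the catalytic subunit, read 133, 166, 132 and 113 CPM over the wild types, against 149, 137, 117 and 177 CPM over the knockouts. The highest library of each genotype, wild-type 2 and knockout 4, reached nearly the same level, and the log2 fold change was 0.09 (SE 0.16). Atp6v1f, of the central stalk, read 47.7, 53.5, 52.6 and 52.3 CPM over the wild types, against 60.2, 53.0, 47.4 and 63.5 CPM over the knockouts. Here too knockout libraries 1 and 4 were highest (log2 fold change 0.12, SE 0.11). Atp6v1e1, the most abundant V1 transcript, read 275, 307, 248 and 250 CPM over the wild types, against 274, 258, 244 and 262 CPM over the knockouts. Its knockout libraries lay within or just below the wild-type range (log2 fold change -0.06, SE 0.11).

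The remaining tested V1 subunits, Atp6v1h, Atp6v1d, Atp6v1c1, Atp6v1g1 and Atp6v1g2, had log2 fold changes from -0.06 to 0.08. Atp6v1h, a regulatory subunit of V1, reached 176 CPM in knockout library 2, and the rest of its genotype read 115 to 120 CPM.

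Among membrane subunits, Atp6v0b read 116, 184, 132 and 123 CPM over the wild types, against 151, 161, 124 and 178 CPM over the knockouts. Wild-type library 2 was the highest of all 8, and the remaining wild-type libraries were near the lowest knockout library (log2 fold change 0.15, SE 0.17). Atp6v0d1 read 171, 218, 180 and 188 CPM over the wild types, against 193, 204, 175 and 193 CPM over the knockouts, with the knockout range inside that of wild type (log2 fold change 0.02, SE 0.11). Atp6v0e read 179, 200, 171 and 172 CPM over the wild types, against 190, 164, 153 and 191 CPM over the knockouts, again with wild-type library 2 highest (log2 fold change -0.05, SE 0.11). Its isoform Atp6v0e2 read 129, 134, 111 and 113 CPM over the wild types, against 108, 106, 132 and 113 CPM over the knockouts (log2 fold change -0.09, SE 0.11). In knockout the highest of these was library 3, which was the lowest for Atp6v0e.

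Atp6ap1, an accessory protein that guides pump assembly, had the smallest spread of all members. It read 205, 245, 223 and 215 CPM over the wild types, against 238, 238, 223 and 244 CPM over the knockouts (log2 fold change 0.09, SE 0.09). Atp6v0a2, an a subunit of the Golgi and endosomes, read 29.9, 28.7, 24.9 and 25.2 CPM over the wild types, against 25.3, 24.3, 30.9 and 24.6 CPM over the knockouts (log2 fold change -0.05, SE 0.11). Knockout library 3 was the highest and the other knockout libraries were close to each other.

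Atp6v0a4 had the widest range of the tested members, 27.4-fold between the lowest and the highest library. It read 7.68, 18.4, 3.08 and 0.670 CPM over the wild types, against 16.6, 2.86, 2.11 and 7.04 CPM over the knockouts. Both genotypes held high and low libraries, and the log2 fold change was -0.06 (SE 0.93). The value ran from -0.90 to 0.91 when single libraries were left out. The symbol with which it shares exons, D630045J12Rik, was at 0.102 to 0.741 CPM.

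Among the cathepsins, Ctsz, which trims single residues from the carboxyl end of proteins, had the smallest p. It read 313, 370, 310 and 272 CPM over the wild types, against 451, 275, 346 and 547 CPM over the knockouts. Knockout libraries 1 and 4 were above all wild-type libraries, and knockout libraries 2 and 3 lay within the wild-type range. The log2 fold change was 0.36 (SE 0.21, unadjusted p = 0.125, adjusted p = 1.00, edgeR). The summed level of macrophage markers was also highest in knockout libraries 4 and 1. By their mean log2 CPM, the measure used for r below, wild-type library 3 (5.65) lay between knockout library 4 (6.28) and knockout library 1 (5.48). The 16 markers, all of them detected, summed to 659 to 1720 CPM over the wild types, against 851 to 3110 over the knockouts, with 15 of 16 log2 fold changes above 0. Over the 8 libraries Pearson's r between Ctsz and the mean log2 CPM of these markers was 0.56 (exact permutation p = 0.15, adjusted p = 0.372). Spearman's rho was 0.29 (p = 0.501). Without wild-type library 1 and knockout library 4, r was 0.07 (exact permutation p = 0.899). The part of macrophage RNA in the difference between the genotypes was not tested.

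The proteases that make up most of the cathepsin RNA overlapped between the genotypes. Ctsb read 3083, 2670, 3233 and 3048 CPM over the wild types, against 3925, 2372, 3134 and 4283 CPM over the knockouts. Knockout libraries 1 and 4 were highest and knockout library 2 was the lowest of all 8 (log2 fold change 0.19, SE 0.20). The Ctsb model shares 774 of its 4743 exonic bases with Fdft1. Ctsd read 2544, 2857, 2658 and 2221 CPM over the wild types, against 3538, 2537, 2262 and 2997 CPM over the knockouts, again with knockout libraries 1 and 4 above wild type (log2 fold change 0.14, SE 0.18). Ctsl, a broad endopeptidase, read 812, 762, 1852 and 1413 CPM over the wild types, against 1588, 626, 704 and 1346 CPM over the knockouts. Each genotype held a pair of high and a pair of low libraries. The log2 fold change of Ctsl was -0.18 (SE 0.39) and turned to 0.28 without wild-type library 3 and knockout library 2, the libraries with epithelial RNA.

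**Figure D3:**
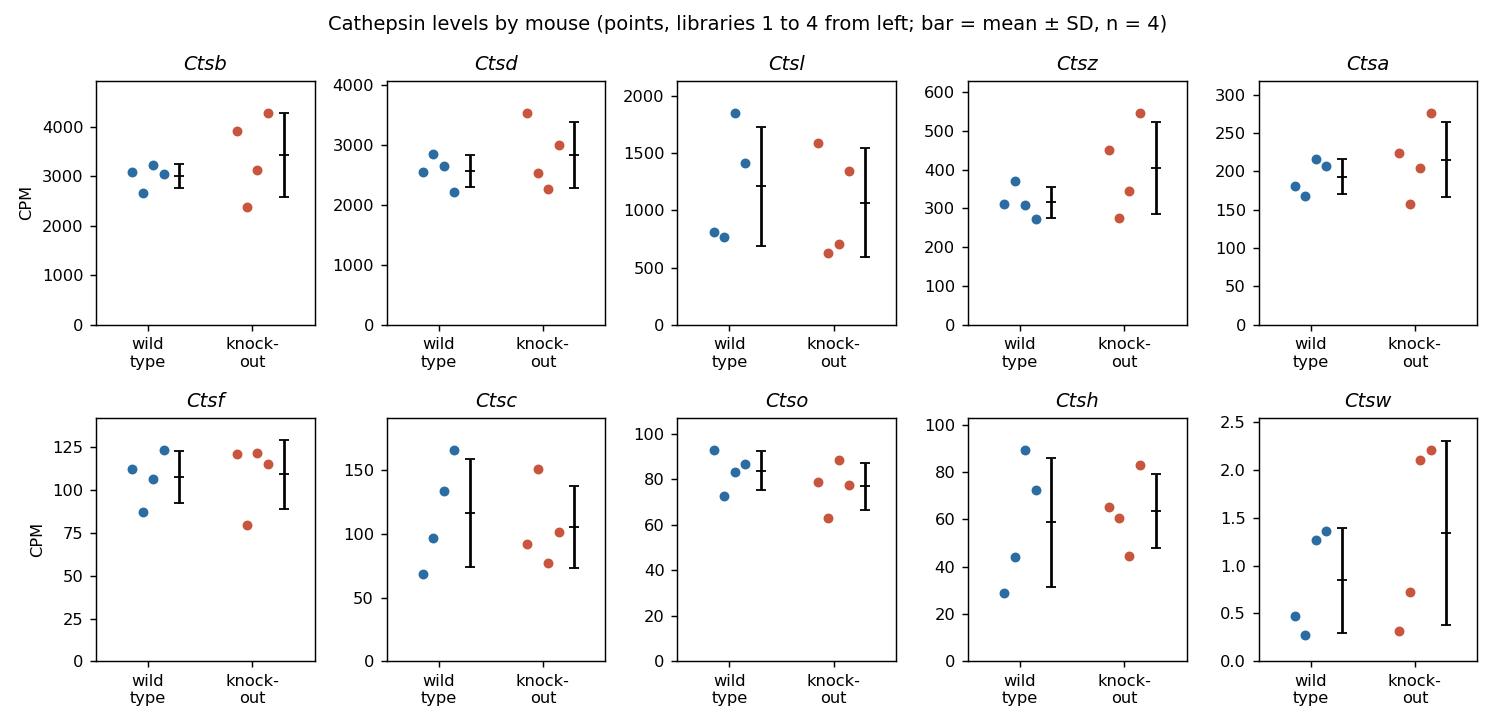
CPM of 10 cathepsins by genotype, each point 1 mouse with libraries 1 to 4 from left to right, and the bar the mean ± SD (n = 4 each). Ctsb, Ctsz and Ctsa have their highest points in knockout libraries 1 and 4, whereas Ctsl has 2 high and 2 low libraries in both genotypes.

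Other cathepsins marked other libraries. Ctsh, an aminopeptidase, read 29.0, 44.0, 89.5 and 72.3 CPM over the wild types, against 65.4, 60.7, 44.7 and 83.1 CPM over the knockouts, with the knockout range inside that of wild type (log2 fold change 0.11, SE 0.34). Ctsh (chromosome 9, 90054267 to 90076095, mm10) ends 15573 bases before Morf4l1, a gene that did pass the threshold over all genes, and the annotation lists no gene between them. Ctsc, which activates granule serine proteases, read 68.8, 97.1, 134 and 166 CPM over the wild types, against 92.2, 151, 77.1 and 102 CPM over the knockouts. Its high libraries were wild-type 3 and 4 and knockout 2 (log2 fold change -0.14, SE 0.29). Ctso, a less studied cysteine protease, read 93.0, 72.6, 83.0 and 86.5 CPM over the wild types, against 78.6, 63.1, 88.4 and 77.5 CPM over the knockouts (log2 fold change -0.12, SE 0.12). Ctsw, which is expressed by cytotoxic T cells and NK cells, read 0.475, 0.275, 1.27 and 1.36 CPM over the wild types, against 0.317, 0.720, 2.11 and 2.21 CPM over the knockouts. Its high libraries were 3 and 4 of both genotypes (log2 fold change 0.66, SE 0.70). Ctsa, a carboxypeptidase that also protects lysosomal sialidase and galactosidase, was at 157 to 276 CPM, Ctsf at 79.4 to 124 CPM, and the aspartic protease Ctse near the floor at 0.206 to 0.419 CPM, with log2 fold changes of 0.16, 0.02 and -0.14. The Ctsa model shares 819 of its 3674 exonic bases with Neurl2 and Pltp.

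The spread between mice of 1 genotype was set beside that of all genes. The pooled SD of log2 CPM within genotypes had a median of 0.15 over the 16 common pump members, from 0.09 to 0.27. It had a median of 0.28 over the 9 cathepsins at 20 CPM or more, from 0.18 to 0.65, and of 0.25 over all tested genes. These are descriptions of the lists, without a test.

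Within wild type, library 2 was the highest for 14 of the 16 common pump members, as it was for 37.4% of all 7121 tested genes at 20 CPM or more. The 14 included Atp6v0b, Atp6v0d1 and Atp6v0e, whose promoters are printed above. They also included Atp6v1d, Atp6v1e1, Atp6v0e2 and Atp6ap1, whose promoters held no TCACGTG. A link between these letters and the pattern was not tested. In knockout, library 4 was the highest for 9 of the 16, library 2 for 4, library 3 for 2 and library 1 for 1, against 17.5% of all genes for library 4. Knockout library 3 was the lowest of its genotype for 10, against 25.3% of all genes. The median deviation from a gene's mean over the 8 libraries was 0.20 on the log2 scale in wild-type library 2 and 0.10 in knockout library 4, and it was -0.14 in knockout library 3. Among the 9 common cathepsins, wild-type library 2 was the lowest of its genotype for 5, against 24.4% of all genes, and the highest for 2. Knockout library 2 was the lowest for 6, against 32.3% of all genes. Knockout library 4 had the highest median deviation of its genotype for cathepsins (0.35) as it did for the pump. These counts are descriptions, and the difference between pump and cathepsins was not tested.

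**Figure D4:**
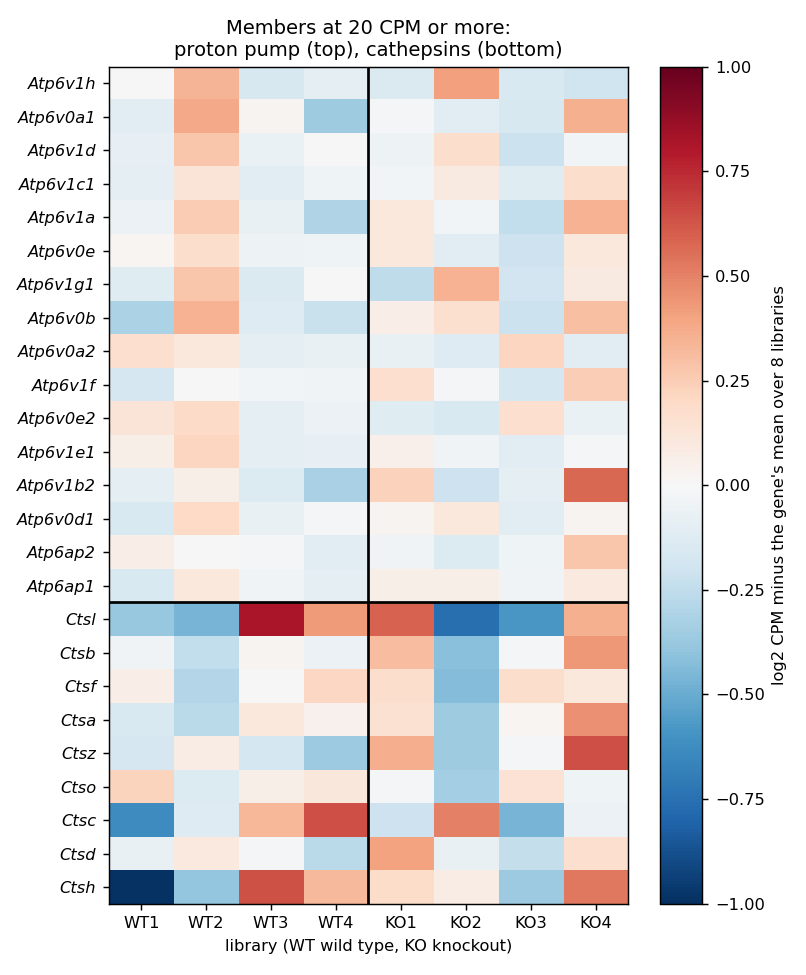
Heat map of log2 CPM minus each gene's mean over 8 libraries, for 16 pump members (top) and 9 cathepsins (bottom) at 20 CPM or more, red above and blue below the mean. The column of wild-type library 2 is above the mean for 15 of 16 pump members and for 2 of 9 cathepsins.

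The levels were next set beside cell-type markers in the 8 mice. With the mean log2 CPM of the 16 macrophage markers, 10 of 11 cathepsins and 12 of 19 pump members had a Pearson correlation above 0. Without the 2 libraries farthest from the median of the marker mean, wild-type 1 and knockout 4, it was above 0 for 11 of 11 cathepsins and for 4 of 19 pump members. With values centred within each genotype, added after the data were seen, it was above 0 for 11 of 11 and 11 of 19. The share of all tested genes above 0 is not given beside these counts, so they do not show a trait of either group. They are descriptions, and the difference between cathepsins and pump was not tested. With all 8 libraries none of the 30 passed an adjusted p of 0.05 over the 30 members. The closest were Ctsh (Pearson's r = 0.89, exact permutation p = 0.00335, adjusted p = 0.099; Spearman's rho = 0.93, p = 0.00223, n = 8) and Ctsa (r = 0.87, exact permutation p = 0.0066, adjusted p = 0.099; rho = 0.88, p = 0.00724, n = 8). Without wild-type library 1 and knockout library 4, r was 0.87 for Ctsh and 0.83 for Ctsa. Within genotypes r was 0.90 and 0.86 (exact permutation p = 0.00868 and 0.0156 over 576 arrangements, adjusted p = 0.208 and 0.26; rho = 0.90 for both, p = 0.0243). When libraries were scaled to total counts both passed (adjusted p = 0.0376 for each). The abundant Ctsd had r = 0.37 (exact permutation p = 0.374) and rho = 0.36 (p = 0.389).

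The same correlations were run with 7 further marker lists after the values had been seen, which gave 240 relations in all. Pearson's r passed an adjusted p of 0.05 over the 240 for 3, which were Ctsw with T and NK cell markers, Atp6v1c2 with mast cell markers and Atp6v1c1 with endothelial markers. By the exact permutation test Atp6v1c2 passed only narrowly (adjusted p = 0.0496), and its Spearman's rho did not pass (adjusted p = 0.0685). The 9 T and NK markers, none at 0 in all libraries, summed to 6.71 to 16.9 CPM over the wild types, against 8.63 to 27.4 over the knockouts. Libraries 3 and 4 of both genotypes stood above libraries 1 and 2 in these markers and in Ctsw. No r over all 8 is therefore given for them. With values centred within these 2 sets, which were taken from the values themselves, r was 0.87 (exact permutation p = 0.00347, unadjusted) and rho 0.90 (p = 0.0243).

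Atp6v0a4 followed mesothelial markers such as Msln and Upk3b, with r = 0.89 (exact permutation p = 0.00342, adjusted p = 0.117) and rho = 0.98 (p = 0.000397, adjusted p = 0.0476). Without knockout library 3 and wild-type library 2, r was 0.90. The 5 mesothelial markers summed to 179 to 969 CPM over the wild types, against 111 to 853 over the knockouts, and wild-type library 2 and knockout library 1 were highest in both measures. Atp6v0e and Atp6v1e1 had r = 0.91 and 0.89 with the same markers (exact permutation p = 0.00263 and 0.00166, rho = 0.86 and 0.91 with p = 0.0107 and 0.00456), with adjusted p of 0.117 and 0.0997. Atp6v1c2 was set beside mast cell markers, of which 4 of 6 were tested and whose sum was 2.16 to 26.9 CPM over the wild types, against 3.69 to 10.6 over the knockouts. Wild-type libraries 3 and 4 stood apart in both measures, and among the other 6 libraries r was 0.93 (exact permutation p = 0.00833) and rho 0.94 (p = 0.0167). These 6 were chosen from the values themselves, and both p are unadjusted.

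Atp6v1c1, the widely expressed C subunit, ran against endothelial markers, with r = -0.94 (exact permutation p = 0.000149, adjusted p = 0.0179) and rho = -0.95 (p = 0.00114, adjusted p = 0.0685). Without knockout libraries 3 and 4, r was -0.89. Other pump members shared the direction, such as Atp6v0b at -0.885 and Atp6v0d1 at -0.826 (exact permutation p = 0.00556 and 0.0124, adjusted p = 0.158 and 0.247). Among the common pump members r was above 0 only for Atp6v0a2 (0.475) and Atp6v0e2 (0.208). The share of all tested genes with r below 0 is not given beside this. The endothelial marker mean was lowest of its genotype in wild-type library 2 (6.66) and knockout library 4 (6.59). In these libraries the median deviation of the common pump members was highest of its genotype, so their correlations are not separate relations. The 5 endothelial markers summed to 602 to 964 CPM over the wild types, against 573 to 995 over the knockouts, a range that is narrow beside those of macrophage or mesothelial markers. With values centred within each genotype, r was -0.95 for Atp6v1c1 with endothelial markers (exact permutation p = 0.00347). It was 0.95 for Atp6v0a4 (p = 0.00174), 0.90 for Atp6v0e (p = 0.0139) and 0.88 for Atp6v1e1 (p = 0.00521) with mesothelial markers, by the same exact permutation test. Within genotypes 0 of the 240 relations passed an adjusted p of 0.05, where 0.00174 is the smallest p that the 576 arrangements can give. All markers come from the same libraries as the members.

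**Figure D5:**
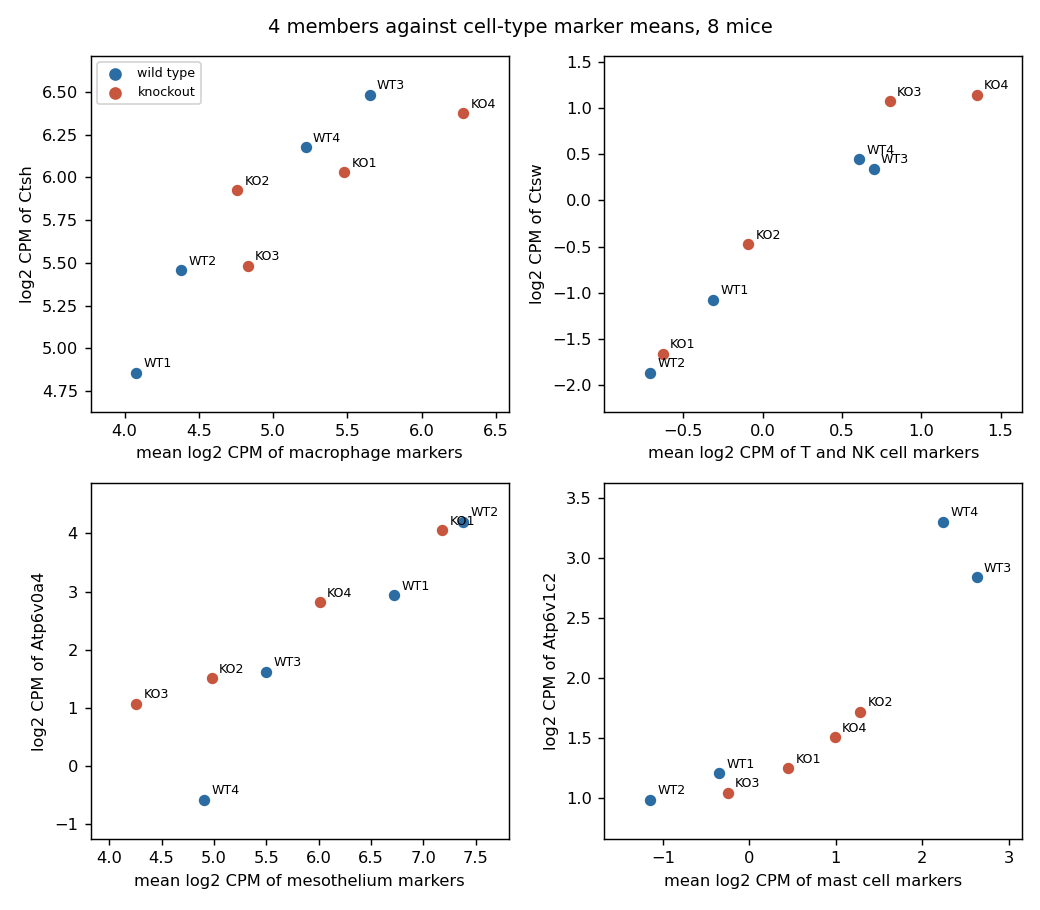
Log2 CPM of Ctsh, Ctsw, Atp6v0a4 and Atp6v1c2 against the mean log2 CPM of macrophage, T and NK cell, mesothelial and mast cell markers, each point 1 mouse, wild type blue and knockout red. Ctsh and macrophage markers are both lowest in wild-type library 1, and Atp6v0a4 and mesothelial markers are both highest in wild-type library 2 and knockout library 1.

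Other genes of the lysosome were compared between the genotypes as well. Over 9 lists of 102 genes, 98 were tested, 56 lay above 0 and 42 below, and none passed the threshold in edgeR, while 3 of 98 had an unadjusted p under 0.05, where 2.23% of all tested genes did. Of 16 lysosomal membrane proteins 10 were above 0, and the 3 are members of that list. Slc17a5, the sialic acid exporter, averaged 12.8 ± 0.743 CPM over the wild types, against 15.2 ± 1.01 over the knockouts (log2 fold change 0.25, SE 0.10), and Ctns, the cystine exporter, averaged 18.9 ± 2.01 and 22.8 ± 2.05 CPM (log2 fold change 0.27, SE 0.11; SD, n = 4 each). The third was the tetraspanin Cd63, named because the count is small (log2 fold change 0.37, SE 0.16).

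The hydrolases that act beside the cathepsins were compared by class. Of 23 glycosidases and sulfatases 10 were above 0, with Hexa at 184 ± 21.7 and 232 ± 75.1 CPM and Galc at 34.1 ± 2.37 and 39.3 ± 7.75 CPM over wild types and knockouts. Of 10 genes of lysosomal lipid handling 7 were above 0. Among them the acid lipase Lipa, which frees fatty acids and cholesterol from lipoprotein lipid, was at 91.1 ± 19.6 and 129 ± 68.9 CPM, and the phospholipase Pla2g15 at 66.6 ± 9.81 and 79.9 ± 16.5 CPM. Of 7 further peptidases 6 were above 0, with the serine carboxypeptidase Scpep1 at 63.7 ± 7.58 and 77.8 ± 11.1 CPM. The exception was Pgcp, now named Cpq, at 126 ± 8.28 and 103 ± 19.2 CPM.

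Of 9 cathepsin inhibitors 5 were tested and 1 was above 0. Ctla2a and Ctla2b, which resemble the inhibitory propeptide of cathepsins, averaged 62.7 ± 1.75 and 17.1 ± 3.47 CPM over the wild types, against 54.5 ± 6.35 and 13.8 ± 2.06 over the knockouts. Transcription factors of the TFEB family and its antagonist Zkscan3 were 5 of 5 above 0, by a median log2 fold change of 0.15, where 53.1% of all tested genes lay above 0. The smallest unadjusted p among the 5 was 0.208, for Tfe3 (edgeR). Tfe3 was at 51.5 ± 2.80 and 55.7 ± 3.81 CPM, and Tfeb at 18.3 ± 3.71 and 21.5 ± 4.05 CPM. In the sorting machinery that carries hydrolases to lysosomes 5 of 9 genes were above 0, with the mannose 6-phosphate receptor M6pr at 146 ± 19.2 and 131 ± 5.05 CPM and the uncovering enzyme Nagpa at 20.8 ± 1.34 and 24.3 ± 5.50 CPM.

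Pump partners with other names were 5 of 11 above 0. Tcirg1, the a subunit best known from osteoclasts, averaged 36.9 ± 14.1 CPM over the wild types, against 59.8 ± 31.8 over the knockouts (log2 fold change 0.70, SE 0.38), with 106 CPM in knockout library 4 and 23.5 CPM in wild-type library 1. These were also the libraries with the most and the least macrophage marker RNA, and the part of that RNA in the difference was not tested. The assembly factor Ccdc115 was at 11.2 ± 0.757 and 12.9 ± 1.54 CPM. Of 12 genes that recruit the kinase mTORC1 to the lysosome 7 were above 0. Rragd, a small GTPase of that group, was at 0.457 ± 0.168 and 1.17 ± 0.881 CPM, and Flcn, which acts on it, at 36.4 ± 3.78 and 41.5 ± 7.60 CPM.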

How the data were processed

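The deposited tables, 1 for each mouse, give raw counts by symbol, and a merged gene annotation was deposited with them. Per the submitters' processing notes, the genome was mm10 and the tools were edgeR, Cufflinks, featureCounts, STAR 2.4.0g1 and FastQC 0.11.2. Their roles and the strand setting are not stated in the labels, so reads in bases shared by genes cannot be assigned with certainty. Library totals of 46444435 to 51431956 counts make counting error small for members at 20 CPM or more, beside a common biological coefficient of variation of 0.301. Counting error is large for Ctse, with 10 to 21 counts per library, and for Ctsw, with 14 to 108. No 2 libraries of a genotype agreed within sampling noise (smallest chi-square per degree of freedom 65.9).

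With edgeR 4.0.16 under R 4.3.3, filterByExpr kept 14493 genes. After TMM scaling (factors 0.966 to 1.05) the genotypes were compared by the robust quasi-likelihood F test without covariates, adjusted by Benjamini-Hochberg over all tested genes at 0.05. The SE is the one that F implies. CPM uses TMM-scaled library sizes, log2 CPM a prior count of 2, and isoform ratios a pseudocount of 0.01 CPM per kb of exon. DESeq2 1.42.0 and limma 3.58.1 were alternatives, with those listed in the closing section. The code was checked on counts simulated from the dispersions that edgeR fitted to these data, so the check does not test the model itself.

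Members, gene lists and tests were chosen with earlier results of these data known. Values in every library are given, for V1, V0 with accessory proteins, and cathepsins each, for the 4 smallest p and the 3 highest levels per kb, and for the 6 largest spreads; from each related list the 2 smallest p are named. The targeted gene is not reported here. Listed symbols were matched to older symbols for 5 genes, such as Emr1 for Adgre1, and 1 had no match.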

Additional observations from a re-analysis of the deposited data

Results flagged for a closer look

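Within each genotype, a library was looked for that lay far from the other 3 in log2 CPM of the 30 tested members and in the 6 isoform ratios. Of 72 groups 4 held one, where chance alone gives about 3.6. Knockout library 2 held 7.46 for Atp6v1h, where the rest of its genotype ran from 6.85 to 6.90. It held 6.31 for Ctsf, against 6.85 to 6.92. Knockout library 3 held 4.95 for Atp6v0a2, against 4.60 to 4.66. The log2 ratio of Atp6v1e2 to Atp6v1e1 stood at -12.34 in wild-type library 2, against -14.48 to -14.33 in the rest of its genotype, which rests on 2 counts of Atp6v1e2 in the former and 0 in the latter.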

How the results depend on the processing

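Over all genes 2 passed the threshold, and 17 did with DESeq2. None did with total-count scaling, no low-count filter, limma voom, the replicate number as a block, wild-type library 3 and knockout library 2 left out, or any single library left out (0 to 0). No member passed in any of these settings, with adjusted p of 0.87 or more. Of 509 member fold changes under alternatives 462 kept their direction, and 12 of 30 members kept it throughout; the largest reported value among those that turned was 0.182 on the log2 scale. Members above 0 numbered 11 to 20 with single libraries left out, 11 without knockout library 4. The medians ran from -0.025 to 0.091 for the pump and -0.011 to 0.183 for the cathepsins. With single libraries left out, ranges across 0 were -0.203 to 0.085 for Atp6v1h, -0.302 to 0.002 for Ctse, -0.107 to 0.173 for Atp6v0a1, -0.138 to 0.028 for Atp6v1d, -0.439 to 0.098 for Ctsl, -0.001 to 0.112 for Atp6v1c1, -0.022 to 0.203 for Atp6v1a, -0.098 to 0.010 for Atp6v0e, -0.055 to 0.235 for Atp6v1g2, -0.064 to 0.145 for Ctsf, -0.125 to 0.105 for Atp6v1g1, -0.137 to 0.000 for Atp6v0a2, -0.897 to 0.909 for Atp6v0a4, -0.098 to 0.009 for Atp6v1e1, -0.373 to 0.080 for Ctsc, -0.028 to 0.091 for Atp6v0d1, -0.111 to 0.389 for Ctsh and -0.062 to 0.087 for Atp6ap2. Changes in isoform ratio ran from -0.145 to 0.329 (Atp6v1g2), -0.228 to 0.056 (Atp6v0a2), -0.463 to 0.804 (Atp6v0a4) and -0.170 to 0.031 (Atp6v0e2). Atp6v1h turned to 0.004 with total counts. Atp6v1g1 turned to -0.004 without a low-count filter, -0.003 with the replicate block and -0.005 with limma voom, and Atp6v0a4 to 0.282 and 0.311 in the last 2 of these. Without wild-type library 3 and knockout library 2, Ctse turned to 0.035, Ctsl to 0.284, Atp6v1g1 to -0.17, Atp6v0d1 to -0.038 and the change in the Atp6v1e2 ratio to -0.15; the cause was not tested. The 6 isoform pairs passed in every setting run for them. With the macrophage mean, 2 members passed with total counts. The correlation turned to 0.086 for Atp6v0a4 with Cd68 alone, to 0.091 for Ctso with total counts, with values centred within genotype to 0.085 for Ctso and -0.038 for Atp6v0d1, and, without the 2 farthest libraries, to -0.398 for Atp6v0a1, -0.67 for Atp6v1c1, -0.318 for Atp6v1a, -0.106 for Atp6v0e, 0.461 for Ctso, -0.578 for Atp6v0b, -0.621 for Atp6v0d1, -0.009 for Atp6ap2 and -0.505 for Atp6ap1. Same-numbered libraries did not all deviate together (correlations 0.108, 0.0435, -0.326 and -0.0144). With 4 mice in a genotype and this spread, small changes of the members cannot be seen.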
